A study of Mus musculus with 18 samples.

Results

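Untreated CD103+CD11b+ cells were compared with untreated CD103-CD11b+ cells of the mouse colon lamina propria, the connective tissue under the gut epithelium. The pair was picked by array title: 3 arrays of each subset from experiments 1 to 3 without treatment, so 6 of the 18 arrays of the study. The mice were BALB/c and 8 weeks old. Cells were freed with collagenase, gated as MHC+CD11chigh and sorted by CD103 and CD11b, so both groups share high CD11c and CD11b and differ in CD103. The other sorted subset, CD103+CD11b-, had 3 untreated arrays as well and is used below for reference levels. The remaining 9 arrays, from experiments 4 to 6, held the same 3 subsets after 2% dextran sulfate sodium (DSS), which damages the gut lining and causes colitis. The labels do not give the number of mice that gave the cells for an array or say that the replicates were separate animals, so the p-values below measure only the spread between these samples, which may be technical.

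CD103 is the alpha E integrin chain, which pairs with the beta 7 chain and binds E-cadherin on epithelial cells. CD11b is the alpha M integrin chain. Classical dendritic cells arise from precursors that respond to the Flt3 ligand, carry antigen to lymph nodes and prime T cells there. They are divided into cDC1, which depend on Batf3 and are known for cross-presentation, and cDC2, which usually carry CD11b and Sirpa. Gut macrophages arise mostly from monocytes, depend on the Csf1 receptor, stay in the tissue and clear dead cells and microbes. Macrophages also carry CD11b and often CD11c and MHC class II, so a gate on these proteins can hold both lineages.

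Expression is given as log2 values made by RMA, in which 1 unit is a doubling. Values ran from 1.07 to 13.16, and the medians of the 18 arrays lay between 3.99 and 4.09. Over all probe sets, arrays of the same group among the 6 compared correlated at 0.965 to 0.973, and arrays of different groups at 0.957 to 0.978. All differences below are CD103+CD11b+ minus CD103-CD11b+ on the log2 scale, ± the standard error of the limma model. That error uses the spread within the groups of all 18 arrays. It can therefore be smaller or larger than the spread of the 6 arrays compared would give. Called genes are those with an adjusted p under 0.05 over 14003 genes (limma, Benjamini-Hochberg, two-sided). The number of arrays limits the precision, and the median standard error of a difference was 0.166.

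Itgae, which encodes CD103, had the largest rise of all called genes. It read 8.89, 8.95 and 8.68 in CD103+CD11b+ cells and 6.45, 6.24 and 6.37 in CD103-CD11b+ cells. The groups lay far apart, with a difference of 2.49 ± 0.13 or 5.61-fold (limma adjusted p = 2.26e-09), in the direction of the sort. Itgam, which encodes CD11b, read 7.22, 7.38 and 7.32 against 7.99, 8.13 and 7.68. Every CD103-CD11b+ array was higher, but the difference of -0.62 ± 0.20 did not pass the test (limma adjusted p = 0.103). Itgax, which encodes CD11c, differed by -0.28 ± 0.16 (limma adjusted p = 0.425), and its groups overlapped.

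Calls were made for 575 of the 14003 genes (4.11%). In CD103+CD11b+ cells 330 of these (2.36%) rose and 245 (1.75%) fell. The median difference of all genes was 0.069, with 8623 of the 14003 genes above 0 and 5380 below. Without CD103+CD11b+ replicate 1 the calls came to 341, without CD103+CD11b+ replicate 2 to 349 and without CD103-CD11b+ replicate 2 to 315. A fit of the 6 arrays alone, with fewer arrays to estimate the spread, called 150 genes, and 62 of the 94 called genes named below were among them. The split between the directions moved with the scaling: 57.4% of the calls were higher as deposited, 44% after a second quantile normalization and 44.9% after centring the arrays on their medians. The falls were deeper than the rises. Among called genes, the median rise was 0.72 and the median fall -0.89, and 50 genes rose over 2-fold while 91 fell over 2-fold. The groups did not overlap for 2431 genes (17.4%), 572 of them called, with 12% of all genes apart upward and 5.4% downward. All 330 rises had the same sign in each of the 3 experiments, as did 244 of the 245 falls. For the 329 rises and 243 falls without overlap between groups, the same sign necessarily followed, so this count is no separate evidence.

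**Figure D1:**
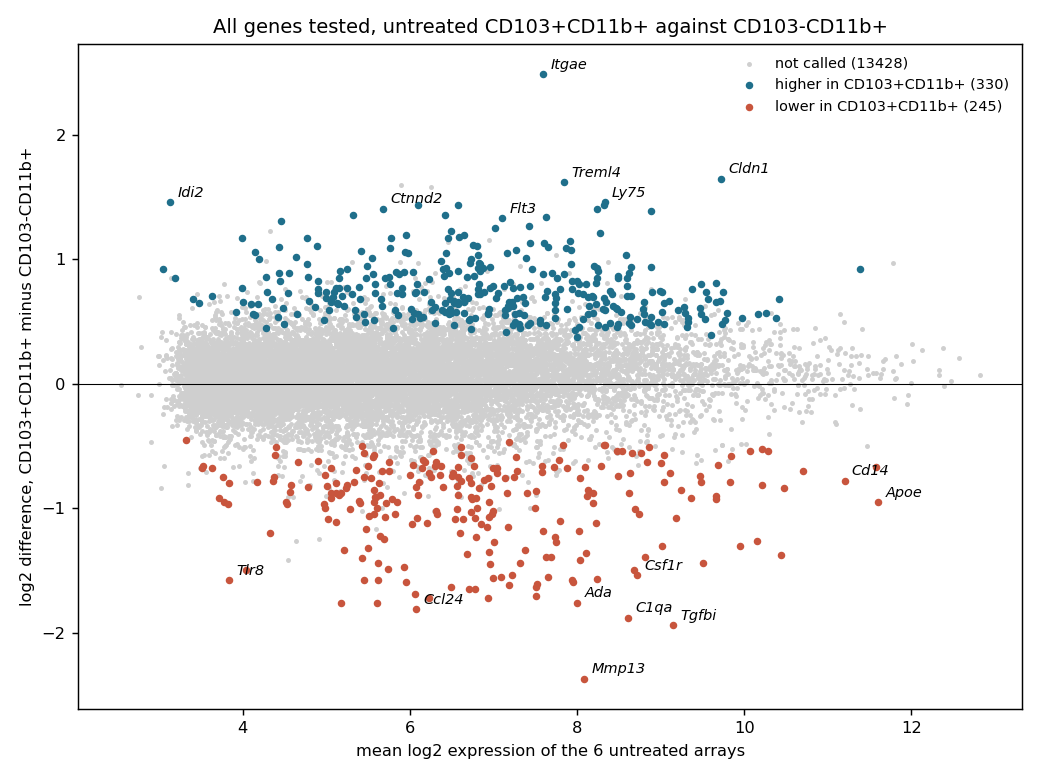
Log2 difference, CD103+CD11b+ minus CD103-CD11b+ without treatment (y axis), against the mean level on the 6 arrays (x axis, log2) for all 14003 genes tested, 1 point a gene. Of the coloured points, 330 lie above 0 and 245 below, with Itgae at 2.49 at the top and Mmp13 at -2.37 at the bottom.

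The gene lists used from here on were chosen with earlier results of these data known, so their counts and medians are descriptions. Some genes are on several lists and count in each, so the counts of different lists are not separate evidence. Several genes that define classical dendritic cells were higher in CD103+CD11b+ cells. Of 20 tested genes of the common dendritic cell list, 9 rose and 0 fell, with a median difference of 0.57 against 0.069 for all genes (3 rises in the fit of the 6 arrays alone). After a second quantile normalization or median centring, 7 rose and 1 fell. With the experiment number as a block, 10 rose and 1 fell. Leaving out 1 array left 6 to 8 rises, with 1 fall without CD103+CD11b+ replicate 3 or CD103-CD11b+ replicate 1. Flt3, the receptor for the growth factor that drives dendritic cell development, read 7.89, 7.82 and 7.61 against 6.73, 5.93 and 6.67. All 3 CD103+CD11b+ arrays were above all 3 others, by 1.33 ± 0.17 (limma adjusted p = 0.000151). Zbtb46, a transcription factor of the classical dendritic cell lineage, read 7.11, 6.86 and 6.77 against 6.20, 5.63 and 6.23, a separation of 0.89 ± 0.15 (limma adjusted p = 0.00174). Relb, an NF-kappaB subunit needed for dendritic cell maturation, was tight in both groups, at 7.37, 7.29 and 7.37 against 6.74, 6.64 and 6.35. It differed by 0.77 ± 0.14 (limma adjusted p = 0.00315). Adam23, a surface protein of the ADAM family, rose by 1.34 ± 0.22 (limma adjusted p = 0.00141), and Btla, an inhibitory receptor, by 0.85 ± 0.16 (limma adjusted p = 0.00456). Id2, a helix-loop-helix inhibitor, differed by 0.67 ± 0.15 (limma adjusted p = 0.0126). Its call was lost without CD103+CD11b+ replicate 2 (adjusted p = 0.0512) and without CD103-CD11b+ replicate 3 (adjusted p = 0.0613). Dpp4, the surface peptidase CD26 and on the same list, was at 0.31 ± 0.14 and did not pass the test. Jaml, also on that list, lay at -0.65 ± 0.19 and was not called either (limma adjusted p = 0.0582).

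As means over the 20 genes, the common dendritic cell list stood at 7.51, 7.52 and 7.59 in CD103+CD11b+ cells and at 7.19, 6.88 and 7.07 in CD103-CD11b+ cells. The CD103+CD11b- cells, at 7.53 to 7.55, lay at the level of the CD103+CD11b+ cells. In these bulk samples, a smaller share of dendritic cells and less of the transcript per cell cannot be told apart, and this holds for every difference below.

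Several genes known from cDC1 were also higher, while the mean of their list stayed well under that of CD103+CD11b- cells. Of 21 tested cDC1 genes, 9 rose and 2 fell, with a median difference of 0.37. One of these rises is Itgae, whose direction the sort set. Without it, 8 of 20 rose and 2 fell, with a median of 0.36. Btla and Id2 are among these rises and also among those of the common dendritic cell list. Xcr1, the receptor for the chemokine Xcl1 and a defining cDC1 marker, read 7.31, 6.47 and 6.68 against 5.63, 5.21 and 5.30. Its groups stood apart by 1.44 ± 0.21 (limma adjusted p = 0.000517), and CD103+CD11b- cells had a mean of 9.62. Ly75, the endocytic receptor DEC-205, read 9.11, 8.89 and 9.19 against 7.67, 7.40 and 7.73. That gap of 1.46 ± 0.16 (limma adjusted p = 3.41e-05) brought CD103+CD11b+ cells close to the mean of 9.69 in CD103+CD11b- cells. Batf3, the transcription factor on which cDC1 depend, read 7.07, 6.66 and 6.96 against 6.11, 5.71 and 6.08, a difference of 0.93 ± 0.17 (limma adjusted p = 0.00280). Here CD103+CD11b+ cells were not below CD103+CD11b- cells, whose mean was 6.65. Wdfy4, needed for cross-presentation, rose by 0.91 ± 0.14 (limma adjusted p = 0.00076) and Septin3, a septin, by 1.20 ± 0.23 (limma adjusted p = 0.00438).

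Other cDC1 genes did not follow. Clec9a, a receptor for dead cells, read 4.35, 4.03 and 4.34 against 3.77, 3.30 and 4.74, with overlapping groups and a difference of 0.30 ± 0.26 (limma adjusted p = 0.629). The mean of Clec9a in CD103+CD11b- cells was 7.87. Irf8, a transcription factor that cDC1 need, was at 7.15, 7.13 and 6.70 against 7.38, 7.88 and 7.46, so lower on all 3 CD103+CD11b+ arrays, but its -0.58 ± 0.18 was not called (limma adjusted p = 0.0908). It was called after a second quantile normalization (adjusted p = 0.0382) and after median centring (0.0496). The adhesion molecule Cadm1 fell by 1.03 ± 0.24 on the log2 scale (limma adjusted p = 0.0178). Its call was lost without CD103+CD11b+ replicate 3 (adjusted p = 0.0766), CD103-CD11b+ replicate 2 (0.103) or CD103-CD11b+ replicate 3 (0.0585). The count of 2 falls on the list came to 0 without CD103+CD11b+ replicate 3 or CD103-CD11b+ replicate 2, and to 1 without CD103+CD11b+ replicate 1 or CD103-CD11b+ replicate 3. It came to 4 after a second quantile normalization, 3 after median centring and 0 in the fit of the 6 arrays alone. Without Itgae, the cDC1 list averaged 6.60, 6.60 and 6.55 in CD103+CD11b+ cells, 6.23, 6.16 and 6.28 in CD103-CD11b+ cells and 8.04 to 8.20 in CD103+CD11b- cells. The part of CD103+CD11b- cells in the rises of cDC1 genes was not tested.

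The cDC2 list did not separate the subsets in one direction. Of its 20 tested genes, 0 rose and 3 fell, and its median difference was 0.24. With the experiment number as a block, 1 gene rose. Its mean lay at 6.55 to 6.67 in CD103+CD11b+ cells, 6.47 to 6.61 in CD103-CD11b+ cells and 5.46 to 5.63 in CD103+CD11b- cells, so both CD11b+ subsets were about equally far from the third. Irf4, a transcription factor of cDC2, differed by 0.37 ± 0.16 (limma adjusted p = 0.249). The lectin gene Mgl2 read 9.29, 9.77 and 9.75 against 9.31, 8.76 and 9.16, a difference of 0.53 ± 0.21 (limma adjusted p = 0.202), while CD103+CD11b- cells had a mean of 4.46. Cd209a, which encodes another lectin, differed by -0.27 ± 0.24 (limma adjusted p = 0.643). The 3 falls were Clec4a2, Zeb2 and Sirpa. Clec4a2, an inhibitory lectin receptor, fell by 1.40 ± 0.19 (limma adjusted p = 0.000353). Zeb2, a repressor that monocyte-derived cells also use, read 7.33, 7.45 and 7.51 against 8.35, 8.95 and 8.54, with no overlap and a difference of -1.18 ± 0.17 (limma adjusted p = 0.00043).

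Sirpa, the receptor for CD47, read 8.55, 8.78 and 8.46 against 9.15, 9.12 and 9.07, and the difference of -0.51 ± 0.14 was close to the threshold (limma adjusted p = 0.0482). Leaving out 1 array ended its call for CD103+CD11b+ replicates 1 and 3 (adjusted p = 0.140 and 0.134) and for each CD103-CD11b+ array (adjusted p = 0.110 without replicate 1, 0.119 without replicate 2 and 0.0835 without replicate 3). It also ended with no filter on low values (adjusted p = 0.0523).

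**Figure D2:**
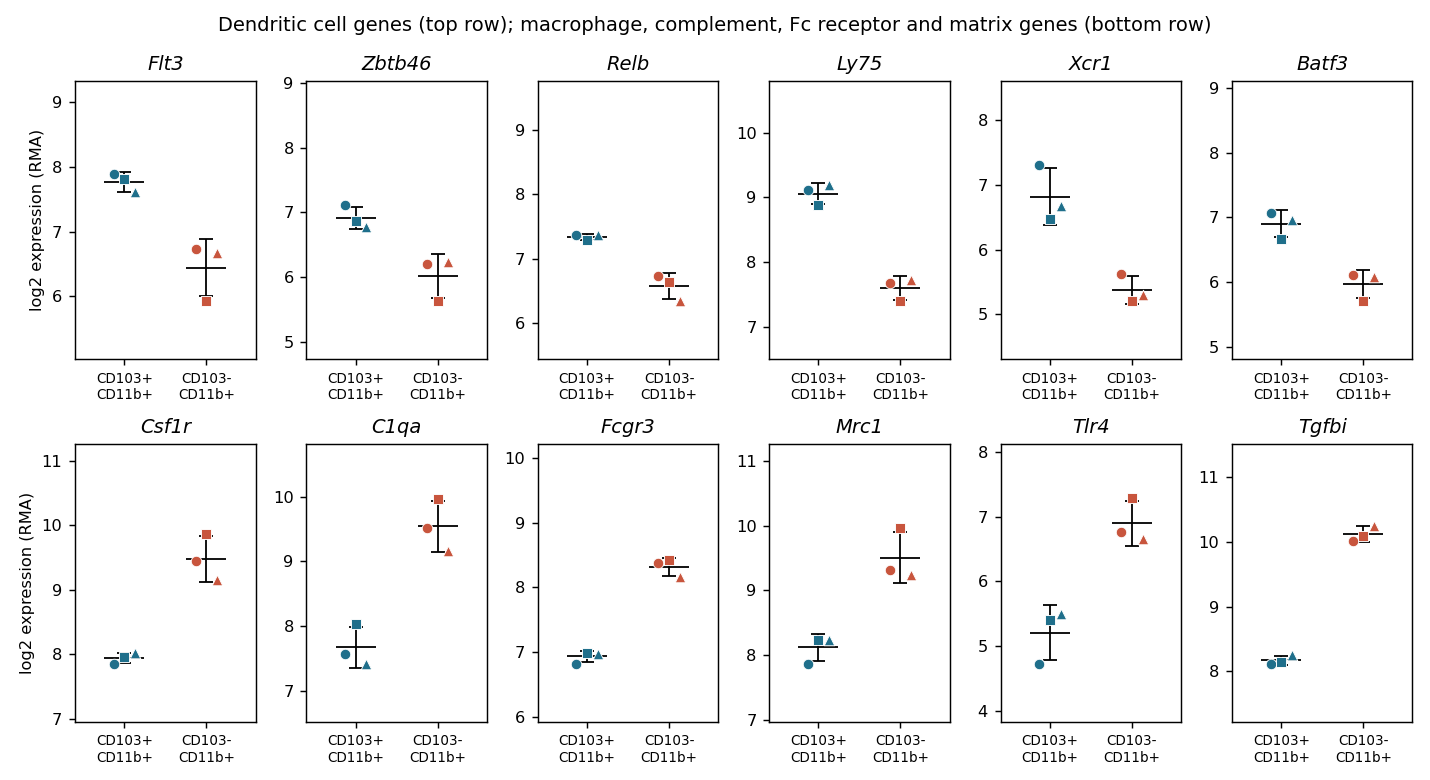
Log2 expression of 12 genes in untreated CD103+CD11b+ (blue) and CD103-CD11b+ (red) cells. Circles, squares and triangles are experiments 1, 2 and 3, bars are means with SD (n = 3), and every panel spans the same range of log2 units. In each panel the 3 arrays of one subset lie above the 3 of the other, dendritic cell genes higher in CD103+CD11b+ cells and the lower row higher in CD103-CD11b+ cells.

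Many macrophage genes ran the other way. Of 24 tested macrophage genes, 13 fell and 0 rose, with a median difference of -0.83 (7 falls in the fit of the 6 arrays alone). The other 11 were not called. The 3 genes above 0 were Mertk at 0.01 ± 0.19, Lyve1 at 0.13 ± 0.20 and Timd4 at 0.48 ± 0.20 (limma adjusted p = 0.989, 0.814 and 0.221). Timd4 was higher on every CD103+CD11b+ array. Csf1r, the receptor for the factor on which macrophages depend, read 7.86, 7.96 and 8.03 against 9.44, 9.87 and 9.15. The groups did not come near each other, at -1.54 ± 0.17 (limma adjusted p = 3.41e-05). Mrc1, the mannose receptor, read 7.87, 8.24 and 8.24 against 9.32, 9.96 and 9.24, a difference of -1.39 ± 0.20 (limma adjusted p = 0.000611). Cd68, a lysosomal membrane glycoprotein, fell by 0.90 ± 0.16 (limma adjusted p = 0.00327), and Pla2g7, which inactivates platelet-activating factor, by 1.08 ± 0.18 (limma adjusted p = 0.00135). Cd14, the endotoxin coreceptor, was high in both subsets, at 10.61, 10.88 and 10.95 against 11.60, 11.73 and 11.44, and still differed by -0.78 ± 0.12 (limma adjusted p = 0.00109).

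CD103-CD11b+ replicate 2 was the highest array for many of these genes. Adgre1, a surface marker of mouse macrophages, read 6.02, 6.18 and 6.64 against 6.78, 8.38 and 7.06. Its difference of -1.13 ± 0.30 (limma adjusted p = 0.0351) lost its call without CD103-CD11b+ replicate 2 (adjusted p = 0.150), and also without CD103+CD11b+ replicate 1 (0.141) or replicate 2 (0.111). Cx3cr1, the fractalkine receptor of gut macrophages, read 5.45, 5.93 and 5.08 against 5.82, 7.07 and 6.20. Those groups overlapped, and the -0.88 ± 0.26 was not called (limma adjusted p = 0.0669), but was with the experiment number as a block (adjusted p = 0.0341), after a second quantile normalization (0.0432) or median centring (0.0475), and without CD103+CD11b+ replicate 2 (0.0403) or CD103-CD11b+ replicate 1 (0.0169). Leaving out any 1 of the 6 arrays left 11 to 14 macrophage genes lower and none higher.

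The 24 macrophage genes averaged 6.68, 6.81 and 6.75 in CD103+CD11b+ cells, 7.39, 7.89 and 7.39 in CD103-CD11b+ cells and 6.15 to 6.31 in CD103+CD11b- cells. CD103+CD11b+ cells thus lay between the other subsets, nearer to CD103+CD11b-. The series title calls all sorted subsets dendritic cells, and the CD103-CD11b+ arrays held Flt3 and Zbtb46 above the filter level of 3.51 together with the highest macrophage levels. Monocyte genes were fewer among the calls: 4 of 16 fell and 0 rose, with a median of -0.37. Ccr2, the receptor that brings monocytes from blood, fell by 0.89 ± 0.20 (limma adjusted p = 0.0132), a call lost without CD103-CD11b+ replicate 1 (adjusted p = 0.0613). The lysozyme genes Lyz1 at -1.38 ± 0.25 (limma adjusted p = 0.00280) and Lyz2 at -0.67 ± 0.14 (limma adjusted p = 0.00695) are near-identical copies whose signals these probe sets may share.

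**Figure D3:**
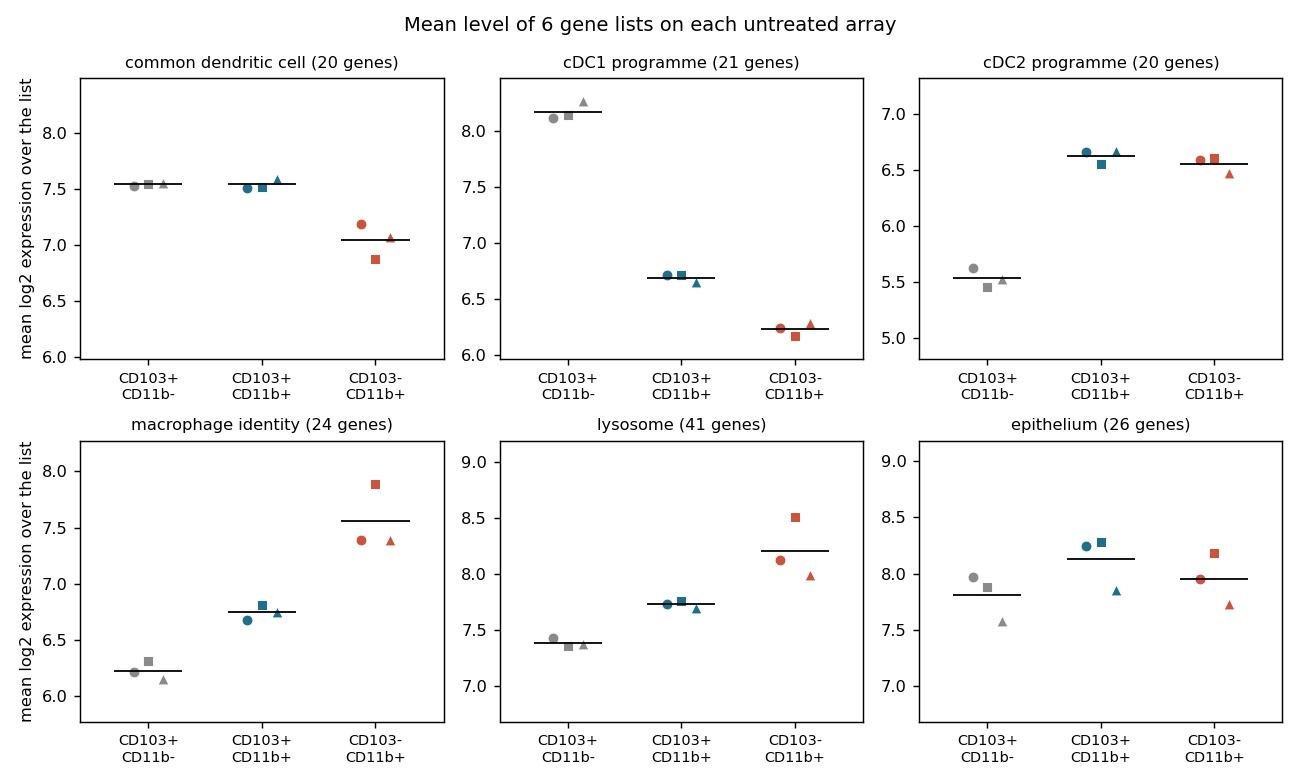
Mean log2 expression over each of 6 gene lists on every untreated array of the 3 subsets (symbols as experiments 1, 2 and 3, lines are means of 3 arrays, all panels span the same range of log2 units, and the cDC1 list includes Itgae). CD103+CD11b+ arrays match CD103+CD11b- arrays for the common dendritic cell list, match CD103-CD11b+ arrays for the cDC2 list and lie between both for the macrophage list, at 6.68 to 6.81.

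Some complement genes were lower. Of 17 tested complement genes, 6 fell and 0 rose, although the median of the list was only -0.12. The 3 chains of C1q, which binds immune complexes and dying cells and starts the classical pathway, fell together. C1qa read 7.56, 8.03 and 7.42 against 9.51, 9.96 and 9.16, a gap of -1.88 ± 0.18 or 3.67-fold (limma adjusted p = 1.01e-05). C1qb differed by -1.58 ± 0.20 (limma adjusted p = 0.000147) and C1qc by -1.30 ± 0.19 (limma adjusted p = 0.000517). In CD103+CD11b- cells the means were lower still, at 6.52 for C1qa, 6.0 for C1qb and 8.13 for C1qc. The receptors for the anaphylatoxins were also lower. C5ar1 read 5.82, 5.58 and 5.65 against 7.26, 7.62 and 7.05 and differed by -1.63 ± 0.16 (limma adjusted p = 1.78e-05). C3ar1 differed by -1.50 ± 0.30 (limma adjusted p = 0.00688). Cfb, a protease of the alternative pathway, fell by 1.18 ± 0.25 (limma adjusted p = 0.00909). C1qa, C1qb, C1qc and C5ar1 also count among the falls of the macrophage list.

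The 250 bases before the start of transcription are shown for 3 genes that fell and 2 that rose, since their transcripts moved in opposite directions between these subsets. They come from RefSeq on GRCm38.p6, written 5′ to 3′ on the strand of the gene: C1qb at chr4:136886201-136886450 (minus), C1qc at chr4:136892915-136893164 (minus), Tgfbi at chr13:56609336-56609585 (plus), Cldn1 at chr16:26371840-26372089 (minus) and Flt3 at chr5:147400490-147400739 (minus). Capitals mark matches to the motifs named after the sequences.
C1qb: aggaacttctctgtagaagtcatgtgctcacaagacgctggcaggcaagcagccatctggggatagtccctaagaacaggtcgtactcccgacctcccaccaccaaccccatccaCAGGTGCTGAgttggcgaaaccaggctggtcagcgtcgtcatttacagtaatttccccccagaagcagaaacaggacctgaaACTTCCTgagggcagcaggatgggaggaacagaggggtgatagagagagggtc
C1qc: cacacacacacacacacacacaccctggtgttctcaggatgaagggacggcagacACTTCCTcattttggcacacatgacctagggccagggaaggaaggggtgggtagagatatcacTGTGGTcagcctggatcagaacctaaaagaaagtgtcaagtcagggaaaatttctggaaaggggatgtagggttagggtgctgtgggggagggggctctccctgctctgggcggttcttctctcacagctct
Tgfbi: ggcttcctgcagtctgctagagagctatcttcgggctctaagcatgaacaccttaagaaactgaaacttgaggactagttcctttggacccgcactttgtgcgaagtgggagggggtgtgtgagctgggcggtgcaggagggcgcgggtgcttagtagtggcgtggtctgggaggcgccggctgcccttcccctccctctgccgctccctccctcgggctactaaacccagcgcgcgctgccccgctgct
Cldn1: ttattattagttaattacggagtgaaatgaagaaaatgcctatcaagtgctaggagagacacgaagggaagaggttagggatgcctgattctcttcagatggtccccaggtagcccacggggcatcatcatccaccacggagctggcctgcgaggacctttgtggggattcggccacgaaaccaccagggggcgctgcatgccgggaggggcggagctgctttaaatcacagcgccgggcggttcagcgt
Flt3: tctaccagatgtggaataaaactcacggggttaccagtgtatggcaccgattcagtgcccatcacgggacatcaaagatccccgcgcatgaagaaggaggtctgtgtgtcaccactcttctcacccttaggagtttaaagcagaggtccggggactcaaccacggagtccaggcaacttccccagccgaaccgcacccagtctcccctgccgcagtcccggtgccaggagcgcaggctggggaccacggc

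The motifs were chosen after these sequences had been seen, and both strands were searched. They were AGGAAGT, a core bound by ETS factors such as PU.1, TGCTGA, part of the MAF site, the E-boxes CAGGTG and CACGTG, and TGTGGT, a RUNX core. C1qb held AGGAAGT on the opposite strand at 53 to 47 bases before the start, and C1qc held it at 195 to 189 bases before the start. In C1qb a CAGGTG match overlapped a TGCTGA match. C1qc also held TGTGGT. Tgfbi, Cldn1 and Flt3 held no match in this window. Of 11082 tested genes with a promoter in the table, 7.57% held AGGAAGT, against 16.3% of 190 genes that fell and 11.3% of 256 that rose. The shares for TGCTGA were 13.3% of all, 21.1% of the falls and 16% of the rises, and for TGTGGT 11.2%, 16.3% and 10.5%. CAGGTG was in 16.4% of all, 13.2% of the falls and 17.2% of the rises, and CACGTG in 8.12%, 9.47% and 6.25%. A match is a description of letters and not a measured binding site.

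Several receptors for antibody and for microbial products were lower in CD103+CD11b+ cells. Of 9 tested Fc receptor genes, 5 fell and 0 rose, with a median of -0.75 (3 falls without CD103-CD11b+ replicate 2). Fcgr3, an activating receptor for IgG, read 6.82, 6.99 and 6.96 against 8.37, 8.42 and 8.16. Replicates lay close together in each group and far from the other, at -1.39 ± 0.15 (limma adjusted p = 3.41e-05). The inhibitory receptor Fcgr2b fell by 1.00 ± 0.14 (limma adjusted p = 0.000477) and the high-affinity receptor Fcgr1 by 1.01 ± 0.20 (limma adjusted p = 0.00614). Of 28 C-type lectin genes, 1 rose, which was Ly75, and 6 fell, with a median of 0.01 and 15 above 0. With the experiment number as a block, 2 rose. Clec4e, the receptor Mincle for mycobacterial glycolipid, read 6.11, 5.84 and 6.26 against 7.91, 8.09 and 7.36, a difference of -1.72 ± 0.29 (limma adjusted p = 0.00177).

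Among 27 pattern recognition genes, 7 fell and 0 rose, with a median of -0.19. Tlr4 and Cd14 among them also count in the macrophage list. The falls came to 4 without CD103+CD11b+ replicate 1 or replicate 3 and to 3 without CD103-CD11b+ replicate 2. Tlr4, the endotoxin receptor, read 4.73, 5.41 and 5.49 against 6.76, 7.29 and 6.65. It fell by 1.69 ± 0.21 (limma adjusted p = 0.000147), and CD103+CD11b- cells had a mean of 4.94. Tlr8, an RNA sensor, read 2.88, 3.09 and 3.19 against 4.55, 5.08 and 4.27. Its CD103+CD11b+ arrays lay under the filter level of 3.51, so the size of the difference of -1.58 ± 0.21 (limma adjusted p = 0.000263) is uncertain and may be a lower bound. Lilra5, an activating receptor of the leukocyte immunoglobulin-like family, fell by 1.72 ± 0.31 (limma adjusted p = 0.00263).

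Matrix enzymes and secreted factors included the deepest falls. Of 30 genes for matrix proteases, their inhibitors and matrix, 6 fell and 0 rose, with a median of -0.22 (3 falls without CD103+CD11b+ replicate 1 or CD103-CD11b+ replicate 2). Mmp13, a collagenase, read 6.44, 7.31 and 6.95 against 8.20, 10.45 and 9.18. The CD103-CD11b+ arrays were widely spread, with an SD of 1.13 against 0.44 in CD103+CD11b+ cells. They still all lay higher, by 5.17-fold (-2.37 ± 0.38, limma adjusted p = 0.00118). Tgfbi, a matrix protein induced by TGF-beta, was tight at 8.12, 8.14 and 8.25 against 10.01, 10.09 and 10.25. It differed by -1.94 ± 0.15 (limma adjusted p = 8.78e-07), while CD103+CD11b- cells had a mean of 9.80, so its mean was lowest in CD103+CD11b+ cells among the 3 untreated subsets. Mmp14, a membrane-bound protease that activates other proteases, fell by 1.36 ± 0.21 (limma adjusted p = 0.00076).

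Of 35 cytokine and inhibitor genes, 2 rose and 3 fell, with a median of -0.06. Inhba, which encodes the activin A chain, read 6.32, 6.81 and 6.19 against 8.08, 7.57 and 8.32, apart by -1.54 ± 0.24 (limma adjusted p = 0.00076). Il22ra2, the soluble inhibitor of IL-22, read 7.55, 7.29 and 7.52 against 9.42, 9.09 and 8.56, with no overlap at -1.57 ± 0.25 (limma adjusted p = 0.000956). CD103+CD11b- cells were lower in Il22ra2 than either, with a mean of 4.72. Il12b, the shared chain of IL-12 and IL-23, read 7.14, 6.15 and 6.12 against 5.74, 5.26 and 5.22. It rose by 1.06 ± 0.25 (limma adjusted p = 0.0199), a call lost without CD103+CD11b+ replicate 1 (adjusted p = 0.112), CD103-CD11b+ replicate 2 (0.0837) or CD103-CD11b+ replicate 3 (0.0760). Among 38 cytokine and growth factor receptors, 2 rose and 4 fell, with a median of -0.04. The falls included Csf3r, the G-CSF receptor, at -1.34 ± 0.22 (limma adjusted p = 0.00117) and Met, the receptor for hepatocyte growth factor, at -1.05 ± 0.18 (limma adjusted p = 0.00175).

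Chemokines were lower where they differed: of 28 genes 5 fell and 0 rose, and the median was -0.08. Ccl24, which attracts eosinophils, read 5.01, 5.74 and 4.75 against 6.50, 8.29 and 6.14. CD103-CD11b+ replicate 2 stood well above the rest, and the difference was -1.81 ± 0.39 (limma adjusted p = 0.0109). Ccl9 fell by 1.15 ± 0.24 (limma adjusted p = 0.00971) and Cxcl14 by 1.08 ± 0.22 (limma adjusted p = 0.00652). Of 19 chemokine receptors, 2 rose and 1 fell, with a median of 0.21. Besides Xcr1 the rise was in Ccr6, the receptor for Ccl20, which read 7.0, 6.81 and 7.07 against 5.97, 6.03 and 5.73. It rose by 1.05 ± 0.18 (limma adjusted p = 0.00152), and CD103+CD11b- cells, with a mean of 5.85, were at the level of CD103-CD11b+ cells. Ccr7, which guides dendritic cells to lymph nodes, was high in both at 11.05, 11.13 and 11.05 against 10.91, 10.67 and 10.60. The groups did not overlap, but 0.35 ± 0.12 was not called (limma adjusted p = 0.118). It was called with a mean trend and robust spread (adjusted p = 0.0367).

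Several lysosomal genes were lower. Of 41 tested genes, 12 fell, 0 rose and 29 were not called, 36 lay below 0, and the median was -0.48. Without CD103-CD11b+ replicate 2 the falls came to 7, and after a second quantile normalization or median centring they came to 21 and 18. Ctsl, a cysteine protease, read 7.18, 7.72 and 7.09 against 8.44, 9.32 and 8.48, a difference of -1.42 ± 0.22 (limma adjusted p = 0.000934). Lamp1, a major protein of the lysosomal membrane, read 9.28, 9.5 and 9.53 against 10.18, 10.31 and 10.19 and fell by 0.79 ± 0.12 (limma adjusted p = 0.00076). Npc2, which carries cholesterol out of lysosomes, fell by 0.74 ± 0.12 (limma adjusted p = 0.00152). Tfec, a transcription factor of the MiT family, fell by 1.58 ± 0.27 (limma adjusted p = 0.00163). Cst7, a cystatin that restrains lysosomal proteases, fell by 1.59 ± 0.31 (limma adjusted p = 0.00476).

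Receptors for dying cells and lipoproteins were divided. Of 32 efferocytosis and scavenger genes, 3 rose and 5 fell, with a median of -0.14 (1 rise and 3 falls without CD103-CD11b+ replicate 2). Mfge8, which bridges phosphatidylserine on dying cells to integrins, read 9.15, 9.02 and 9.19 against 8.31, 8.09 and 8.15. It rose by 0.94 ± 0.16 (limma adjusted p = 0.00205) and had a mean of 6.61 in CD103+CD11b- cells. Axl, a receptor kinase for dying cells, went the other way, at 6.31, 6.53 and 6.29 against 7.46, 7.88 and 7.59, or -1.27 ± 0.19 (limma adjusted p = 0.000636). Msr1, a scavenger receptor, fell by 1.56 ± 0.25 (limma adjusted p = 0.00109). Among 42 genes of sterol synthesis and lipid handling, 2 rose and 4 fell, with a median of -0.10. Apoe, an apolipoprotein that macrophages secrete, read 11.09, 11.18 and 11.12 against 11.90, 12.42 and 11.92, a difference of -0.95 ± 0.15 (limma adjusted p = 0.00117). Abca1, which exports cholesterol, fell by 1.59 ± 0.21 (limma adjusted p = 0.000244), and Plin2, which coats lipid droplets, by 1.63 ± 0.19 (limma adjusted p = 7.7e-05). Idi1, an enzyme of isoprenoid synthesis, rose by 0.70 ± 0.14 (limma adjusted p = 0.00831), but not as the mean of its probe sets (0.48, adjusted p = 0.273).

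Idi2, a paralogue of Idi1, was among the 15 largest rises at low signal, with 3.39, 3.62 and 4.58 against 3.19, 1.83 and 2.17. Its CD103-CD11b+ arrays and CD103+CD11b+ replicate 1 lay under the filter level of 3.51. The size of the difference of 1.46 ± 0.37 (limma adjusted p = 0.0279) is thus uncertain. The call was lost without CD103+CD11b+ replicate 2 (adjusted p = 0.0521) or replicate 3 (0.118) and without CD103-CD11b+ replicate 2 (0.143) or replicate 3 (0.0975), and with a trended robust spread (0.0524).

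Ada and Gda, enzymes that break down adenosine and guanine, were lower. Of 22 purine and adenosine genes, 6 fell and 0 rose, with a median of -0.33 (3 falls without CD103-CD11b+ replicate 2). Ada, the adenosine deaminase, read 7.27, 7.03 and 7.06 against 8.76, 9.34 and 8.53. The difference was -1.76 ± 0.19, or 3.38-fold (limma adjusted p = 3.41e-05). Gda, guanine deaminase, fell by 1.07 ± 0.18 (limma adjusted p = 0.00145) and P2ry13, a receptor for ADP, by 1.47 ± 0.27 (limma adjusted p = 0.00280). In the prostaglandin and leukotriene list, 2 of 26 genes rose and 4 fell, and the falls came to 1 to 3 when any 1 of the 6 arrays was left out. Ptger4, a receptor for prostaglandin E2, rose by 0.69 ± 0.13 (limma adjusted p = 0.00514). Ptger2, another receptor for prostaglandin E2, was called in the opposite direction, at -0.78. The fit of the 6 arrays alone called 0 genes of this list in either direction.

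Some junction genes were higher, while integrin and adhesion genes held calls in both directions. Of 27 junction genes, 4 rose and 1 fell, with a median of 0.18 (2 rises without CD103+CD11b+ replicate 2 or CD103-CD11b+ replicate 2). The list of epithelial markers also had a median of 0.18, with 22 of 26 genes above 0 and a higher mean in CD103+CD11b+ cells in all 3 experiments. Its 1 call, Cdh1, which encodes E-cadherin, is also 1 of the 4 junction rises, at 0.71 ± 0.17 (limma adjusted p = 0.0242). That call was lost without CD103+CD11b+ replicate 1 (adjusted p = 0.0790) or 2 (0.125) and without CD103-CD11b+ replicate 2 (0.103) or 3 (0.0826). The part of epithelial transcripts in the junction rises was not tested. Cldn1, a tight junction protein that lamina propria dendritic cells are known to make, read 10.45, 10.61 and 10.59 against 8.76, 8.97 and 8.97. The groups were tight and far apart at 1.65 ± 0.22, or 3.14-fold (limma adjusted p = 0.000225), and CD103+CD11b- cells had a mean of 9.95. Ctnnd2, a delta catenin, read 6.46, 6.51 and 6.17 against 5.07, 5.15 and 4.69, apart by 1.41 ± 0.18 (limma adjusted p = 0.000147). Of 32 integrin and adhesion genes, 3 rose and 4 fell, with a median of -0.12 and 20 below 0. One of the 3 rises is the sort marker Itgae, and without it 2 of 31 rose. The falls came to 2 without CD103+CD11b+ replicate 2 and to 1 without CD103-CD11b+ replicate 2. Itga4, the alpha 4 integrin chain, rose by 0.76 ± 0.14 (limma adjusted p = 0.00438) and Alcam, a ligand of CD6 on T cells, by 0.67 ± 0.14 (limma adjusted p = 0.00759). Itga9, the alpha 9 integrin chain, read 5.81, 5.92 and 5.90 against 6.83, 8.40 and 7.36 and fell by 1.65 ± 0.28 (limma adjusted p = 0.00192).

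Ligands for T cells changed in a few members, and antigen presentation genes were near balance. Of 23 costimulatory and coinhibitory genes, 3 rose and 1 fell. Tnfsf4, the OX40 ligand, read 5.95, 6.24 and 5.8 against 4.75, 4.76 and 4.39. It was apart by 1.36 ± 0.27 (limma adjusted p = 0.00686) and had a mean of 4.13 in CD103+CD11b- cells. Of 16 MHC class II and CD1d genes, 2 rose and 2 fell, with a median of 0. H2-Ab1, a classical class II chain, read 9.43, 9.79 and 9.60 against 9.74, 9.89 and 9.41, with overlapping groups and a difference of -0.07 ± 0.14 (limma adjusted p = 0.848). H2-Oa, a chain of the H2-O protein that restrains peptide loading, read 8.04, 7.57 and 7.81 against 7.24, 6.56 and 6.37. It rose by 1.08 ± 0.25 (limma adjusted p = 0.0164), a call lost without CD103+CD11b+ replicate 1 (adjusted p = 0.0769), CD103-CD11b+ replicate 2 (0.0712) or CD103-CD11b+ replicate 3 (0.0785).

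Lineage transcription factors held calls in both directions: 10 of 52 rose and 3 fell, with a median of 0.11 (9 rises and 5 falls after a second quantile normalization, 3 rises in the fit of the 6 arrays alone). Besides Zbtb46, Batf3 and Relb, Stat5b, which acts downstream of GM-CSF and other cytokines, read 7.19, 7.11 and 7.29 against 6.31, 6.21 and 6.46. That separation of 0.87 ± 0.12 passed at an adjusted p of 0.000477 (limma). Zeb1, a repressor related to Zeb2, rose by 0.83 ± 0.16 (limma adjusted p = 0.00416), opposite to the fall of Zeb2. Nr4a3, an orphan nuclear receptor induced by activation, read 10.73, 10.84 and 10.72 against 10.08, 10.02 and 10.14. It was 1 of 2 rises among 32 immediate-early and heat shock genes, at 0.68 ± 0.12 (limma adjusted p = 0.00233).

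**Figure D4:**
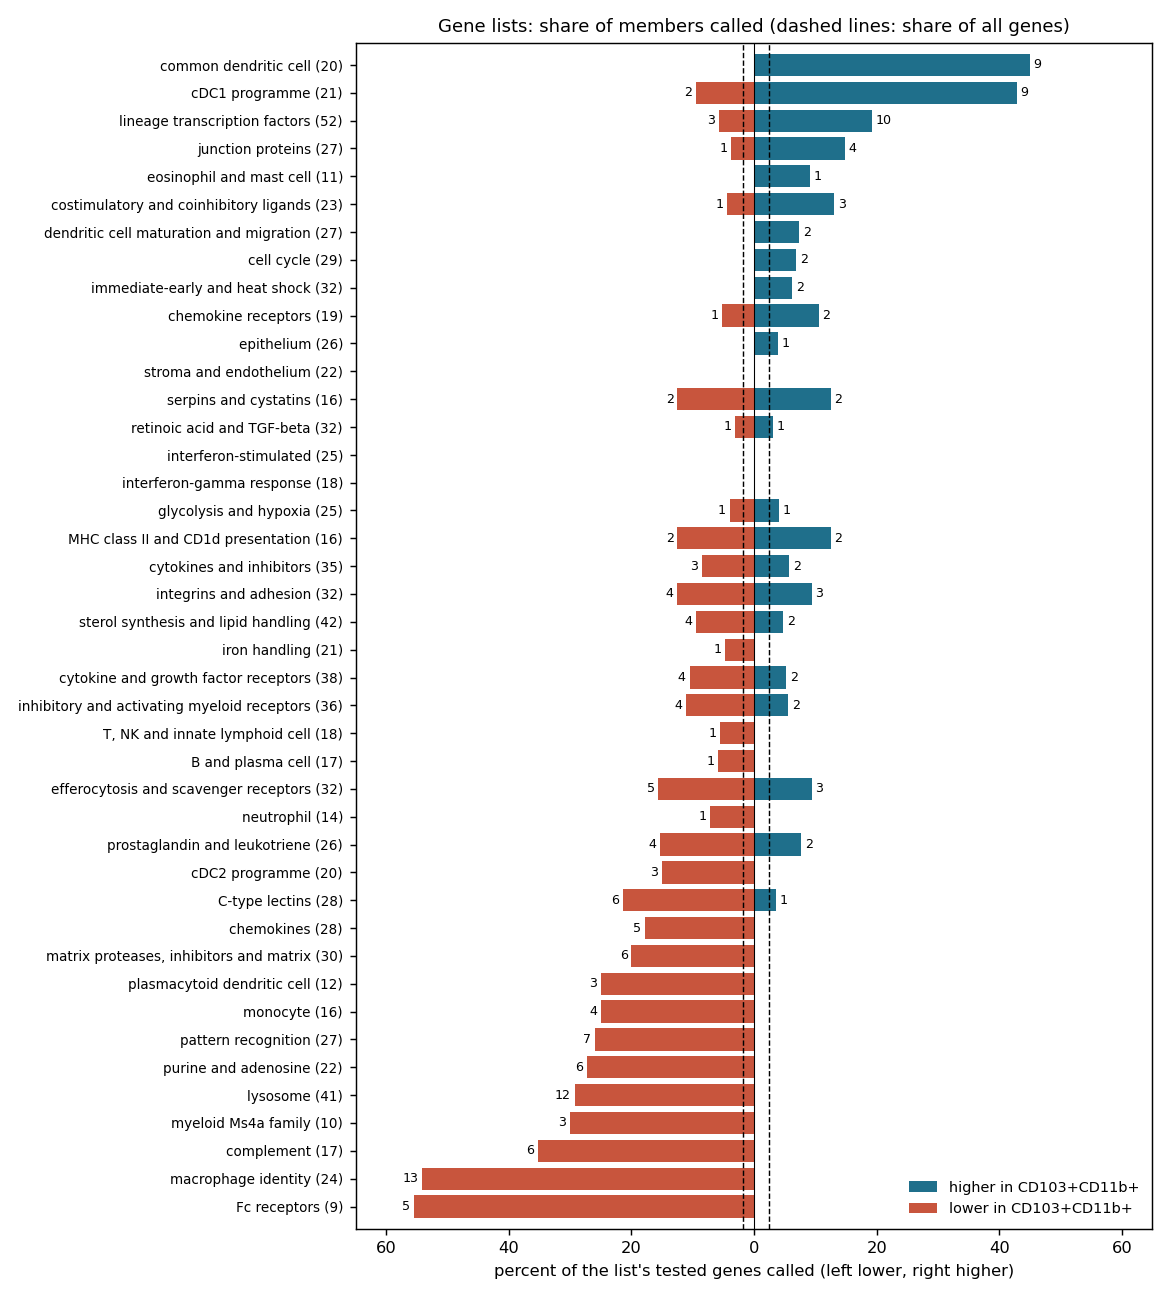
Share of the tested members of each gene list (number tested in brackets) that were called higher (blue, right) or lower (red, left) in untreated CD103+CD11b+ cells, in percent. Numbers at the bars are counts of genes, and dashed lines are the shares over all 14003 genes, 2.36% higher and 1.75% lower. The lists were chosen with earlier results of these data known, so the shares are descriptions. Genes on several lists count in each. The 2 longest bars to the right are the common dendritic cell and cDC1 lists with 9 genes each (the sort marker Itgae among the latter), and the longest to the left are Fc receptors with 5 and macrophage identity with 13.

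Other groups held few calls. Of 27 dendritic cell maturation genes 2 rose, although 24 lay above 0, against 8623 of all 14003 genes, and the median was 0.27. Of 32 retinoic acid and TGF-beta genes, 1 rose and 1 fell, and Aldh1a2, which makes retinoic acid, read 4.43, 4.95 and 5.44 against 4.81, 4.52 and 4.42. The overlap was wide, at 0.35 ± 0.24 (limma adjusted p = 0.502). None of 25 interferon-stimulated genes, with a median of -0.11, and none of 18 interferon-gamma response genes, with a median of 0.07, was called by limma. Glycolysis and hypoxia genes had 1 rise and 1 fall of 25, and cell cycle genes 2 rises of 29. Of 10 tested genes of the myeloid Ms4a family, 3 fell and 0 rose (1 fall without CD103+CD11b+ replicate 1 or CD103-CD11b+ replicate 2). Of 21 iron handling genes 1 fell: Cp, ceruloplasmin, at -0.80 ± 0.16 (limma adjusted p = 0.00593).

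Marker genes of other cell types were read in both subsets, but without detection calls the presence of their transcripts could not be judged. The epithelial list averaged 7.85 to 8.28 in CD103+CD11b+ and 7.73 to 8.18 in CD103-CD11b+ cells, with 1 of 26 genes called, and its keratin gene Krt8 read 10.72, 10.53 and 10.19 against 10.35, 10.41 and 9.72. The B and plasma cell list averaged 6.70 to 6.83 against 6.63 to 6.81 with 1 fall of 17, and the list for T, NK and innate lymphoid cells 5.76 to 5.87 against 5.66 to 5.92 with 1 fall of 18. For neutrophils the ranges were 4.95 to 5.17 and 5.05 to 5.35 with 1 fall of 14, and for stroma and endothelium 5.88 to 6.13 and 5.76 to 5.98 with 0 calls of 22. The ranges overlapped for all 5 lists. Within experiments, however, the epithelial mean was higher in CD103+CD11b+ cells each time, by 0.30, 0.10 and 0.12, as was that of stroma and endothelium, by 0.15, 0.12 and 0.16. These lists had 22 of 26 and 18 of 22 genes above 0, against 8623 of all 14003 genes. Their medians were 0.18 and 0.17 against 0.069 for all genes. The other 3 lists differed in sign between experiments. The plasmacytoid dendritic cell list had a lower mean, at 5.78 to 5.92 against 5.98 to 6.23, with 3 falls of 12 (1 without CD103+CD11b+ replicate 1 or 2 or CD103-CD11b+ replicate 2, and 0 in the fit of the 6 arrays alone). Its median difference was only -0.04, and 9 genes were not called. Within experiments its mean differed by -0.06, -0.37 and -0.24. The eosinophil and mast cell list had 1 rise of 11, and the erythroid list had 2 tested genes and no call. What these transcripts contribute to the differences above was not tested.

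The 15 largest rises held further genes. Of 36 inhibitory and activating myeloid receptor genes 2 rose and 4 fell, and of 16 serpin and cystatin genes 2 rose and 2 fell. Treml4, a TREM-like receptor of myeloid cells, read 9.02, 8.37 and 8.58 against 7.57, 6.85 and 6.68, a rise of 1.62 ± 0.25 (limma adjusted p = 0.00076). Serpinb6b, an intracellular serpin, read 9.61, 9.58 and 9.54 against 8.49, 8.01 and 8.06, or 1.39 ± 0.14 (limma adjusted p = 1.78e-05). The groups of both were wide apart, and CD103+CD11b- cells had means of 9.11 and 10.01, so near those of CD103+CD11b+ cells. Scin, which severs actin filaments, rose by 1.44 ± 0.21 (limma adjusted p = 0.000643), and Rtn1, a reticulon of the endoplasmic reticulum, by 1.44 ± 0.24 (limma adjusted p = 0.00152). Dpy19l3 rose by 1.36 ± 0.19 (limma adjusted p = 0.000425) and A530064D06Rik by 1.41 ± 0.22 (limma adjusted p = 0.000941).

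Among the 15 largest falls, further genes covered varied functions. Dmxl2, which regulates the vacuolar proton pump, read 4.53, 4.55 and 5.09 against 6.19, 6.88 and 6.38, with no overlap at -1.76 ± 0.18 (limma adjusted p = 2.76e-05). Serpinb8, an intracellular serpin like Serpinb6b, moved in the opposite direction to it, by -1.76 ± 0.25 (limma adjusted p = 0.00043). Hal, which starts histidine breakdown, fell by 1.65 ± 0.26 (limma adjusted p = 0.000935) and Tm4sf19, a membrane protein, by 1.71 ± 0.26 (limma adjusted p = 0.00076).

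The same subsets from DSS-treated mice, on 6 other arrays, were compared within the same limma model. For each gene, the same estimate of spread, from all arrays of the study, served both comparisons. The differences after DSS come from other arrays, but the overlap of calls below is therefore not an independent repeat. After DSS, 221 genes (1.58%) were called, 61 (0.436%) as rises and 160 (1.14%) as falls. With the experiment number as a block, 94 were higher. Of the 330 rises in untreated mice, 291 (88.2%) were also above 0 after DSS, where 46.5% of all genes were, and 44 were called. Of the 245 falls, 244 (99.6%) were also below 0, where 53.5% of all genes were, and 113 were called. The shared calls made up 72.1% of the rises and 70.6% of the falls called after DSS, and 0 genes were called in opposite directions. The rises had a median difference of 0.72 in untreated and 0.31 in DSS mice, and the falls one of -0.89 and -0.70. These genes were picked by their untreated values, which by itself tends to make the medians on other arrays smaller. The medians therefore do not measure an effect of DSS. Fewer calls after DSS do not show a smaller difference: the change itself, as an interaction in limma, was called for 0 genes, with 778 genes (5.56%) at an unadjusted p under 0.05. Without DSS CD103-CD11b+ replicate 6 it was called for 1 gene, and the 221 DSS calls came to 97. They came to 116, 133 and 125 without DSS CD103+CD11b+ replicates 4, 5 and 6, and to 128 without DSS CD103-CD11b+ replicate 4.

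Members kept their direction to different extents. Itgae differed by 1.62 after DSS (limma adjusted p = 3.68e-06), Cldn1 by 1.17 (adjusted p = 0.00648), Ly75 by 1.08 (adjusted p = 0.000873) and Ccr6 by 1.05 (adjusted p = 0.00276), all called. Xcr1 at 0.74 (limma adjusted p = 0.0942), Treml4 at 0.78 (adjusted p = 0.163) and Il12b at -0.12 (adjusted p = 0.966) were not called. Csf1r at -1.62 and Fcgr3 at -1.37 were close to their untreated values and called. C1qa at -1.41 and Tgfbi at -1.55 were also called, against -1.88 and -1.94 in untreated mice. Cfb differed by -2.0 after DSS (limma adjusted p = 0.000241) against -1.18 in untreated mice, and its interaction was not called. Of the macrophage list 12 genes fell after DSS, and of the common dendritic cell list 2 rose.

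**Figure D5:**
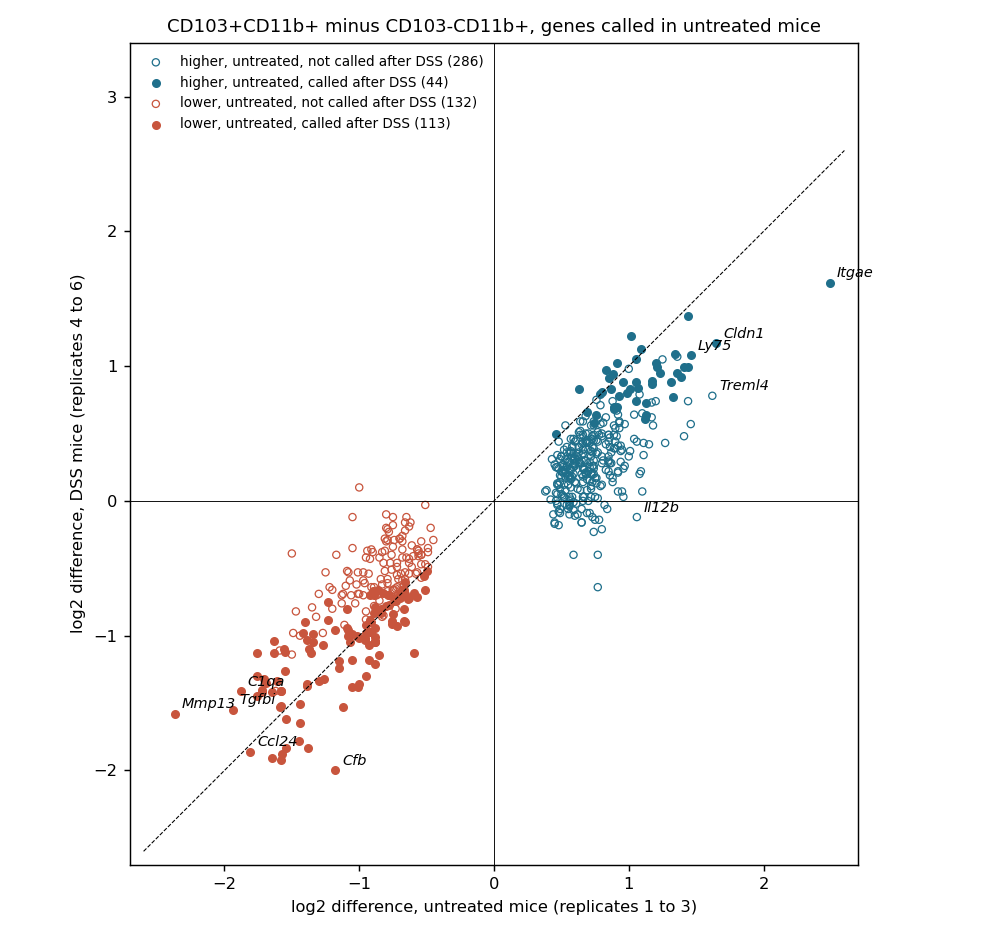
Log2 difference between CD103+CD11b+ and CD103-CD11b+ cells in untreated mice (x axis) and in DSS-treated mice (y axis) for the 575 genes called in untreated mice. Filled points were also called after DSS (44 rises and 113 falls), and the dashed line marks equal differences. Rises lie mostly under the line, with medians of 0.72 and 0.31, and falls nearer to it, with medians of -0.89 and -0.70. The genes were picked by the x axis values, which by itself tends to make the y axis values smaller.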

How the data were processed

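Gene expression was measured on 18 Affymetrix arrays from 5 ng of amplified total RNA each. The deposited values are log2 expression, which the authors obtained with RMA according to the submitters' processing notes (version not given in the sources used here). Of 34760 probe sets, 21640 carried 1 gene symbol and were used. 14003 genes passed a level of 3.51, the 40th percentile of all values, in at least 3 arrays, each by its probe set of highest mean. Values carry no detection calls, and 3.51 is not a detection limit. For a gene with a group mean under 3.51, the size of the difference is therefore called uncertain. The model, fitted to all 18 arrays in limma 3.58.1 (R 4.3.3), held 6 group means. It was tested on simulated data with independent noise and no experiment effect, which cannot judge the pairing. For the 3 comparisons, p-values were adjusted by Benjamini-Hochberg over all genes. The experiment number was taken to pair arrays, but the main fit was unpaired and the number entered only as a block in an alternative. Across genes, residuals of same-numbered arrays of the 2 subsets correlated at 0.29, 0.29 and -0.03. Among the 3 untreated subsets, 8 of 9 same-numbered pairs were over 0.1. Their median was 0.25, against -0.12 for pairs with different numbers. The 44 gene lists hold 874 tested genes. Members and lists were chosen with earlier results of these data known, and Benjamini-Hochberg was never applied over a list alone. Named genes are the sort markers, the 15 largest called rises and falls with groups that did not overlap, and list members (called ones, then up to 4 others in list order). Alternatives were scaling, filters, probe set means, the 6 arrays alone, the experiment as a block, a trended robust spread and leaving out each array.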

Additional observations from a re-analysis of the deposited data

How the results depend on the processing

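All calls of the untreated comparison kept their direction under each alternative in which the gene was tested, but their number moved. A fit of the 6 arrays alone gave 150 calls, 69 higher and 81 lower, of which 149 were shared with the 575. Leaving out 1 array gave 315 to 571 calls, 174 to 330 higher and 141 to 255 lower. After DSS, leaving out 1 array gave 97 to 203 calls, 16 to 47 higher and 81 to 156 lower, and 0 to 1 interaction. The replicate block gave 697 untreated calls, 403 higher and 294 lower, with 546 of the 575 kept, 305 DSS calls with 94 higher and 211 lower, and 0 interactions. Of 94 called genes named, 62 kept the call in every setting run, 83 when any single array was left out and 94 under both rescalings and the block. Calls lost in the fit of the 6 arrays alone included Zbtb46 (limma adjusted p = 0.0664), Relb (0.0576), Septin3 (0.0769) and Cd68 (0.071). Cd14 (limma adjusted p = 0.0585), Fcgr1 (0.0608), C3ar1 (0.103) and Ccl24 (0.122) were lost there as well. Among named genes that were not called, Clec9a changed sign when 1 array was left out (-0.02 without CD103-CD11b+ replicate 2, up to 0.7), as did H2-Ab1 (-0.21 to 0.03, with 0.01 and 0.03 without CD103+CD11b+ replicate 1 and CD103-CD11b+ replicate 2). The cause was not tested. With no detection calls, signal over background could not be judged, and 3 arrays a group limit what small differences can show.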

Other observations

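Called genes outside the lists held a group that acts in protein synthesis, chosen here after its values had been seen, so its counts are a description with no test. Aminoacyl-tRNA synthetases load amino acids onto their transfer RNAs. Of 18 cytosolic synthetase genes tested, 8 rose in CD103+CD11b+ cells, 0 fell and 16 lay above 0. The median difference was 0.40 against 0.069 for all genes, of which 2.36% rose and 8623 of 14003 lay above 0. Gars, for glycine, read 8.81, 8.92 and 8.59 against 8.10, 7.93 and 8.14. Tars, for threonine, read 7.35, 7.40 and 7.49 against 6.87, 6.95 and 6.78. Both were apart in all 3 experiments, Gars by 0.72 ± 0.15 (limma adjusted p = 0.00831) and Tars by 0.55 ± 0.11 (limma adjusted p = 0.00652). Among 15 genes for the mitochondrial synthetases, which serve the ribosomes of that organelle, none was called by limma and the median was 0.07.

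Of 31 genes of amino acid supply and the amino acid starvation response, also listed after seeing values, 6 rose, 0 fell and 26 lay above 0, with a median of 0.26. Chac1, which breaks down glutathione, read 8.42, 8.65 and 8.04 against 7.65, 7.69 and 7.58, a rise of 0.73 ± 0.15 (limma adjusted p = 0.00752). Sesn2, a sensor of leucine, rose by 0.88 ± 0.19 (limma adjusted p = 0.012) and Shmt2, which makes glycine in mitochondria, by 0.85 ± 0.18 (limma adjusted p = 0.0100). Both calls were lost without CD103+CD11b+ replicate 1 (adjusted p = 0.0689 and 0.0516), that of Sesn2 also without CD103-CD11b+ replicate 2 (0.0706) and that of Shmt2 without CD103+CD11b+ replicate 2 (0.0623). Atf4, the transcription factor of that response, read 9.63, 9.56 and 9.24 against 9.37, 9.48 and 9.11 with overlapping groups and was not called. Without CD103+CD11b+ replicate 1 the synthetase rises came to 2 and the supply rises to 1. A second quantile normalization left 4 synthetase rises, with 1 synthetase gene called lower, and 4 supply rises. Median centring left 5 and 4, and a fit of the 6 arrays alone 0 and 1. After DSS, 0 synthetase genes and 1 supply gene were called higher, with medians of 0.24 and 0.11.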
